A study of Mus musculus with 18 samples.

Results

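Complement is a cascade of serum and cell-derived proteins that marks targets for uptake and draws in phagocytes. In the classical pathway, C1q, built from the products of *C1qa*, *C1qb* and *C1qc*, binds immune complexes or dying cells. All activation routes meet at C3, factor B (*Cfb*) and properdin (*Cfp*) serve the alternative pathway, and the small fragments C3a and C5a act on the G protein-coupled receptors C3AR1 and C5AR1. Blood monocytes carry C5AR1, and tissue macrophages are a main source of C1q.

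These 8 genes were looked up by symbol in RNA-seq of mouse monocytes, and 7 of them were found among the 20298 genes measured. *Cfp* was not analysed here. The 18 libraries formed 6 groups of 3, all from C57BL/6 mice. Ly6C+ CCR2+ monocytes of wild-type (WT) mice and of *Stat5a* and *Stat5b* double knockin (DKI) mice, whose STAT5 forms dimers but not tetramers, were left untreated (day 0) or kept for 3 or 6 days in culture with GM-CSF at 20 ng/mL. GM-CSF, a cytokine that signals through STAT5, turns these monocytes into monocyte-derived cells (MDCs). The libraries come from 3 independent experiments. The knockin is carried in the germ line by every cell, and the untreated monocytes were not cultured, so that days in culture and GM-CSF cannot be told apart. The labels call the tissue liver, whereas the series description and the methods name bone marrow. Of 9 hepatocyte markers, 4 (*Alb*, *Ttr*, *Ahsg* and *Serpina1a*) were listed at 0 RPKM in all 18 libraries and *Fgb*, *Apoa1* and *Apoa2* reached at most 0.634 RPKM, while the list summed through *Hp* and *Trf* to 398 to 787 RPKM on day 0, 49.4 to 102 RPKM in WT and 90.9 to 839 RPKM in DKI cultures on day 3, and 81.8 to 167 RPKM in WT and 159 to 699 RPKM in DKI cultures on day 6. The monocyte genes *Ly6c2*, *Ccr2* and *Csf1r*, with 5 further monocyte markers, summed to 2739 to 3859 RPKM on day 0.

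Levels are given in RPKM, read counts scaled by gene length and by the mapped reads of the library, which can be compared between genes. The libraries held 29.5 M to 43.2 M mapped reads (median 36.4 M). The library names carry an earlier year for replicate 1 of days 3 and 6 in both genotypes (the earlier-year libraries) and a later year for the other 14 libraries (the later-year libraries). For part of the results, values without the former are given as well. In bulk RNA, a difference in the share of a cell type and a difference in the RNA per cell cannot be told apart. The marker lists for other cells were chosen with earlier results of these data known. The paper names some genes of the macrophage and dendritic cell lists among those that differ between its WT and DKI MDCs. The macrophage list of 9 genes summed to 713 to 1379 RPKM in WT and 2780 to 10808 RPKM in DKI MDCs on day 3. Of the 9 tested, 4 were called higher, where 3.21% of 9740 genes were called higher. The 11-gene dendritic cell list summed to 18494 to 19472 RPKM in WT and 1355 to 5183 RPKM in DKI MDCs. Of the 10 tested, 7 were called lower, where 410 of 9740 genes were called lower. On day 6 the sums were 681 to 1543 RPKM in WT and 2904 to 12960 RPKM in DKI MDCs for the former list and 13349 to 22978 RPKM in WT and 2229 to 8163 RPKM in DKI MDCs for the latter. The highest DKI sums of the former list and the lowest of the latter were those of replicate 1, an earlier-year library, on both days. In the later-year DKI libraries the former summed to 2780 and 3701 RPKM on day 3 and 2904 and 3923 RPKM on day 6. The latter summed to 4629 and 5183 RPKM on day 3 and 8163 and 3756 RPKM on day 6. The 8 monocyte markers summed to 1207 to 1781 RPKM in WT and 2113 to 3684 RPKM in DKI MDCs on day 3 and to 970 to 1605 RPKM in WT and 1848 to 2815 RPKM in DKI MDCs on day 6, with 0 called by limma on either day. The 5 megakaryocyte and platelet markers summed to 61.1 to 248 RPKM in WT and 917 to 2273 RPKM in DKI MDCs on day 3 and to 67.3 to 184 RPKM in WT and 561 to 2938 RPKM in DKI MDCs on day 6. *Pf4*, at 890 to 2234 RPKM in DKI MDCs on day 3, made up nearly all of the DKI sums and was called higher on both days, while *Gp9* was at most 0.157 RPKM in the MDC libraries. The part of these shifts in the results below was not tested.

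The genes lie at 5 places in the genome (GRCm38/mm10, RefSeq). *C1qb*, *C1qc* and *C1qa* sit side by side on chromosome 4 within 18.7 kb, from 136880126 to 136898844. *C3* (57203967 to 57228136) and *Cfb* (34856374 to 34862514) are on chromosome 17, *C3ar1* on chromosome 6 (122847140 to 122856157) and *C5ar1* on chromosome 7 (16246743 to 16259540). The 250 bases upstream of the start were taken from RefSeq promoters of GRCm38.p6, which held 5 of the 8 genes. The start is that of the transcript RefSeq promoters were built on, which for *C1qc* and *C5ar1* lies inside the span of the gene, so that these windows reach into it. They are shown for the clustered genes *C1qb* and *C1qc*, whose transcripts moved together, and for both receptors, which differed most firmly between the genotypes. Each is read 5′ to 3′ on the minus strand, and the capitals mark GAGGAA or its reverse complement TTCCTC, a core bound by the myeloid factor PU.1.
C1qb, chr4:136886201-136886450: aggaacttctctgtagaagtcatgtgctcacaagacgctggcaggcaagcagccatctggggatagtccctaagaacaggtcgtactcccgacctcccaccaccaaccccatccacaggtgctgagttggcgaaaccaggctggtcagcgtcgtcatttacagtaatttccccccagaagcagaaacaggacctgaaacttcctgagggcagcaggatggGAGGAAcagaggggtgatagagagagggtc
C1qc, chr4:136892915-136893164: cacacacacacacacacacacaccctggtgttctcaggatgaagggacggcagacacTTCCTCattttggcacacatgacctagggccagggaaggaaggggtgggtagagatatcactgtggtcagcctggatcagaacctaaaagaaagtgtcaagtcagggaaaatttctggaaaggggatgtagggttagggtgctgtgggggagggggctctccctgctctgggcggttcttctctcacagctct
C3ar1, chr6:122856158-122856407: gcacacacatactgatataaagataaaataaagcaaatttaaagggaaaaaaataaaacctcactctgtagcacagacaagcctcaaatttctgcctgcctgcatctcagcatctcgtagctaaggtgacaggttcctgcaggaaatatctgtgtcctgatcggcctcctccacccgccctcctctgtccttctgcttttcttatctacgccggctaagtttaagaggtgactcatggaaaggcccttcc
C5ar1, chr7:16259339-16259588: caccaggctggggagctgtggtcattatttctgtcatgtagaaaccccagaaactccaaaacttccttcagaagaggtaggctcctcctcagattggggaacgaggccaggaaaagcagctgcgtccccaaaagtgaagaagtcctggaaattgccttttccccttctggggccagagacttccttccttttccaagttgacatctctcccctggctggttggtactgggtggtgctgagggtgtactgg

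Both strands of these windows and of that of *C3* were searched for 3 motifs. TTCNNNGAA, the palindrome that STAT5 binds, was in none of the 5 windows and in 7.02% of 32851 mouse windows of the same length. The repeat bound by interferon regulatory factors, GAAA and GAAA with 2 bases between, was in none of the 5 and in 2.98% of all windows. GAGGAA was in *C1qb*, at bases -30 to -25 from the start, and, as TTCCTC, in *C1qc* at bases -193 to -188. This 6-base motif was in 23.3% of all windows, so that 2 of 5 is a description of these letters only.

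Before GM-CSF, none of the complement genes tested was called between the genotypes. Untreated monocytes held a high level of *C3* and almost no C1q. *C3* was at 478, 536 and 526 RPKM in WT and 472, 468 and 495 RPKM in DKI monocytes. *C5ar1*, the receptor of C5a, was at 60.5, 41.6 and 13.1 RPKM in WT and 61.4, 30.3 and 19.5 RPKM in DKI monocytes. *C3ar1*, the receptor of C3a, was at 9.21, 6.52 and 1.51 RPKM in WT and 9.10, 8.87 and 2.19 RPKM in DKI monocytes. Replicate 3 was the lowest for both receptors in both genotypes. *Cfb* was between 2.86 and 4.82 RPKM in the 6 libraries. In the same-numbered pairs, DKI monocytes held 1.08, 1.28 and 1.60 times the *Cfb* and 0.986, 0.873 and 0.940 times the *C3* of WT monocytes. The C1q genes were near the limit of counting, with 5 to 10 reads for *C1qa*, 1 to 4 for *C1qb* and 4 to 11 for *C1qc* per library, where 3 reads is the floor used here. Differences were tested with limma on log2(RPKM + 1), and a gene was called at a Benjamini-Hochberg adjusted p under 0.05 over all genes fitted and a fold change above 1.5. Genes had to reach a mean of 2 RPKM in a group, which the 3 C1q genes did not on day 0. Of the 4 genes tested, 0 were called by limma, as were 0 of 9179 genes in all (0% called), 44 of which had an unadjusted p under 0.05. The replicate block called 0 genes as well, and with all 18 libraries in 1 fit 6 genes were called, 0 of them members. A limma-voom fit of the recovered reads called 0 genes as well, with 34 at an unadjusted p under 0.05, or 403 with the replicate number as a block.

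**Figure D1:**
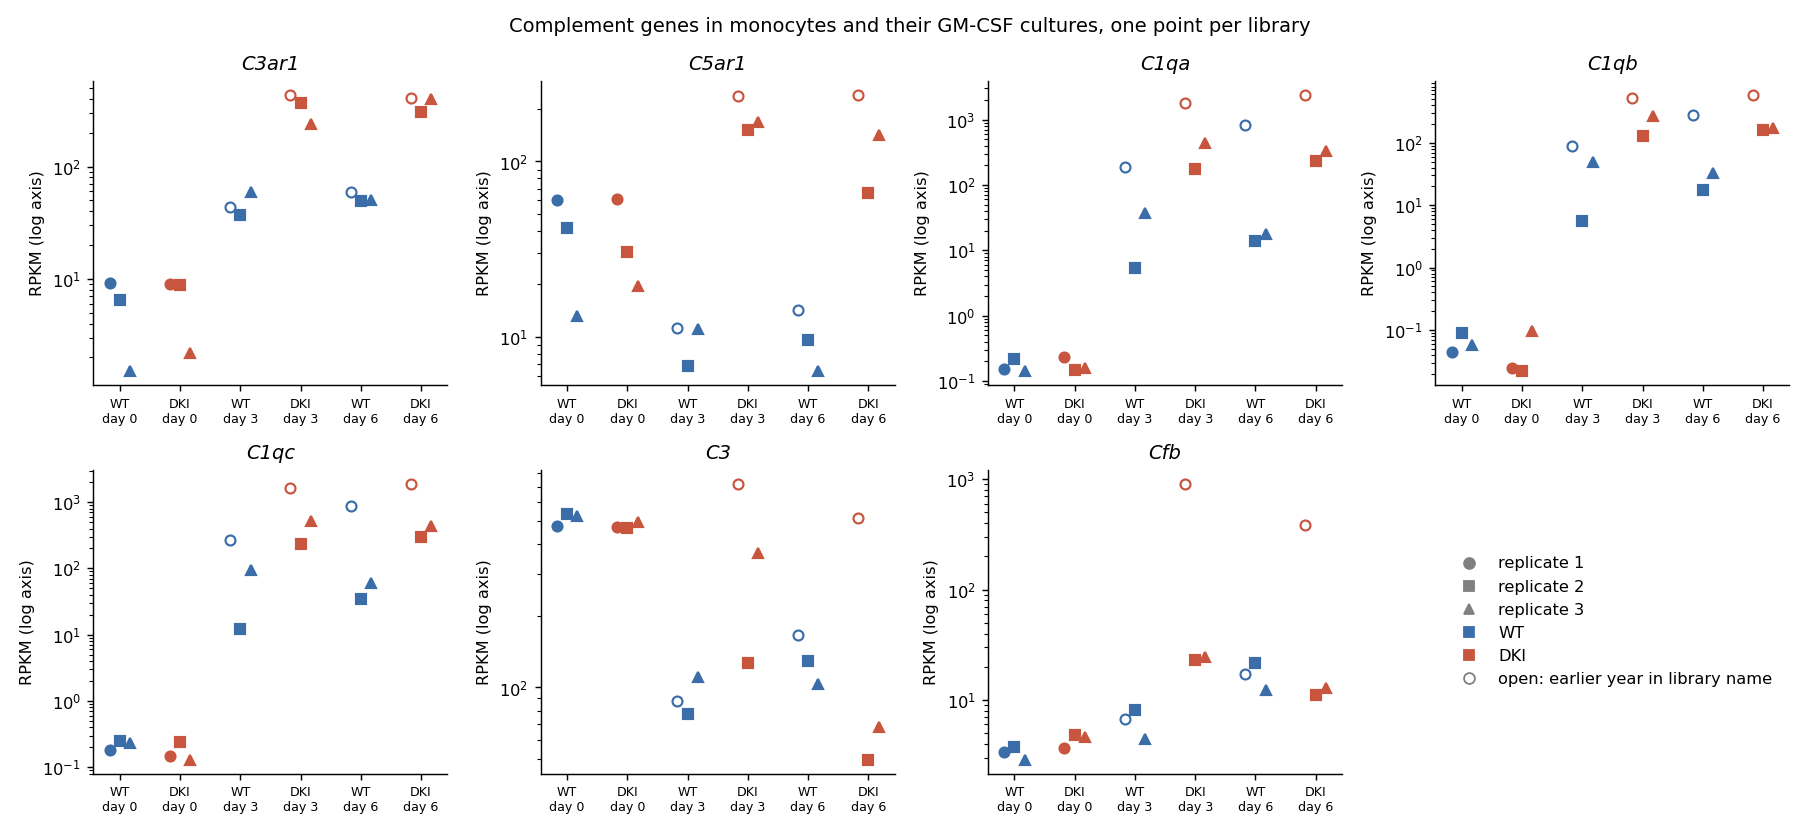
RPKM on a log axis of the 7 complement genes in each of the 18 libraries, by genotype and day, with 1 symbol per replicate number and open symbols for the earlier-year libraries. *C3ar1* and *C5ar1* of the DKI MDCs lie above all WT MDCs on both days, whereas the open symbols are the highest of their group for the C1q genes and, in DKI MDCs, for *C3* and *Cfb*.

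With GM-CSF, WT monocytes gained C1q and *C3ar1* and lost *C3* and *C5ar1* by day 3. *C1qa* reached 187, 5.43 and 37.2 RPKM, *C1qb* 90.0, 5.51 and 50.0 RPKM, and *C1qc*, the most abundant of the set, 271, 12.2 and 96.3 RPKM. The WT cultures thus spread over more than an order of magnitude, with replicate 2 the lowest for each C1q gene. *C3* fell to 87.8, 77.1 and 110 RPKM (log2 fold change -2.49, SE 0.17, adjusted p = 0.000128 by limma). *C5ar1* fell to 11.2, 6.77 and 11.0 RPKM (-1.67, SE 0.52, adjusted p = 0.0350). *C3ar1* rose to 43.2, 37.3 and 59.8 RPKM (3.02, SE 0.50, adjusted p = 0.00319), and no WT library of day 3 overlapped day 0 for any of the 3 genes, where 61.0% of genes did not overlap. *Cfb* was at 6.77, 8.04 and 4.47 RPKM (0.75, SE 0.22, adjusted p = 0.0294). All 7 genes were called, 5 higher and 2 lower, where 43.1% of the 9938 genes fitted were called (20.3% higher and 22.8% lower). The C1q genes entered this test through day 3 alone, with log2 differences of 4.94 for *C1qa*, 4.87 for *C1qb* and 5.85 for *C1qc*, which the added 1 RPKM understates. In the limma-voom fit of the reads, which called 43.8% of genes, the C1q genes were not called (adjusted p = 0.180, 0.139 and 0.119 in the same order). The calls of *C5ar1* and *Cfb* were each lost on leaving out 5 of the 6 libraries in turn. *C5ar1* stayed called only without day 0 replicate 3 and *Cfb* only without day 3 replicate 3, and the log2 differences ranged from -2.29 to -1.23 and from 0.60 to 0.96.

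In DKI monocytes *C3ar1*, *C5ar1* and the C1q genes rose by day 3, whereas *C3* and *Cfb* were not called. *C3ar1* rose to 435, 368 and 237 RPKM on day 3 (log2 fold change 5.63, SE 0.49, adjusted p = 0.00104 by limma). *C5ar1* rose to 235, 151 and 168 RPKM (2.42, SE 0.42, adjusted p = 0.00745), above every library of day 0, where 55.2% of genes did not overlap (20.6% higher on day 3). The C1q genes reached 1768, 176 and 434 RPKM for *C1qa*, 529, 128 and 269 RPKM for *C1qb* and 1642, 231 and 523 RPKM for *C1qc*. Their log2 differences from day 0 were 8.77, 7.98 and 8.96 (SE 0.76, 0.47 and 0.65), and they were also called with limma-voom, which called 32.1% of genes. Of the 7 genes, 5 were called, all higher, where 34.2% of 9922 genes were called (13.1% higher). The 3 C1q genes passed the filter through day 3 alone, so that they could be called in this direction only. *C3* spread from 127 to 720 RPKM in DKI MDCs, around its day 0 level (-0.56, SE 0.59, adjusted p = 0.477). *Cfb* was at 914, 22.9 and 24.5 RPKM (3.95, SE 1.35, adjusted p = 0.0605), and was called without DKI day 3 replicate 1, at a log2 difference of 2.21 (adjusted p = 0.00142).

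The 2 receptors were the members most firmly set apart between the genotypes. On day 3, *C5ar1* of WT MDCs was at 6.77 to 11.2 RPKM and that of DKI MDCs at 151 to 235 RPKM (log2 fold change 4.12, SE 0.26, adjusted p = 0.00256 by limma). In the same-numbered pairs the DKI library was 21.0, 22.2 and 15.2 times higher. *C3ar1* differed by 2.85 (SE 0.29, adjusted p = 0.00690), and its DKI libraries were 10.1, 9.85 and 3.96 times higher. WT and DKI values of neither receptor overlapped, which held for 36.3% of the genes tested (13.4% higher in DKI). These were 2 of the 7 members called, where 7.42% of 9740 genes were called (3.21% higher in DKI). The median log2 difference was 3.09 over the 7 members and -0.11 over all genes fitted. Both receptors were called under all 16 alternatives on day 3, with adjusted p up to 0.0358 for *C3ar1* and 0.0206 for *C5ar1*.

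On day 6 both receptors were again higher in DKI MDCs. *C3ar1* was at 59.4, 49.2 and 50.9 RPKM in WT and 406, 306 and 398 RPKM in DKI MDCs (log2 fold change 2.77, SE 0.19, adjusted p = 0.00623 by limma). *C5ar1* was at 14.3, 9.52 and 6.36 RPKM in WT and 240, 65.7 and 142 RPKM in DKI MDCs (3.64, SE 0.50, adjusted p = 0.0186). All DKI libraries were again above all WT libraries for both genes, where 37.2% of genes did not overlap (10.6% higher in DKI). They were the only 2 of 7 members called, where 7.54% of 9842 genes were called (2.72% higher), and the medians were 2.33 over the members and -0.17 over all genes. *C3ar1* was called under all 16 alternatives. *C5ar1* lost its call without WT replicate 1 (adjusted p = 0.0508), without WT replicate 3 (0.0671), without DKI replicate 3 (0.0727) and in the later-year libraries alone (0.0866), all by limma, with the log2 difference between 3.21 and 4.13 on leaving out any 1 library.

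Whether the genotypes responded differently to GM-CSF was tested as an interaction of genotype and day over the 12 libraries of days 0 and 3. *C5ar1* passed (4.09 on the log2 scale, SE 0.74, adjusted p = 0.0163 by limma), as its level fell in WT and rose in DKI cells. It was 1 of the 7 members called, where 2.91% of 10212 genes were called. The call was lost without DKI day 0 replicate 2 (adjusted p = 0.0522) and in the later-year libraries (0.0592). *C3ar1* differed by 2.60 (SE 0.78, adjusted p = 0.116, and called at 3.21 without WT day 0 replicate 3, adjusted p = 0.0402) and the C1q genes by 3.11 to 3.83 (adjusted p = 0.199 to 0.281). *C3* differed by 1.92 (adjusted p = 0.174 by limma) and *Cfb* by 3.20 (0.346), and each was called in 1 of the 12 fits that left out 1 library. In the later-year libraries *Cfb* differed by 1.51 and was called (adjusted p = 0.0436 by limma). With the replicate number within each day as a block, a setting added after the data were seen, 5 members were called, namely *C5ar1*, *C3ar1* and the 3 C1q genes, where 10.2% of genes were called. Between days 3 and 6, 0 members and 0 of 9985 genes (0%) had a different genotype effect by limma, and 89 genes had an unadjusted p under 0.05 (58 by limma-voom). Between days 3 and 6 within a genotype, the fits of the 6 libraries compared called 0 of 9613 genes (0%) in WT and 0 of 9540 (0%) in DKI MDCs by limma, 722 and 93 of them at an unadjusted p under 0.05 (706 and 88 by limma-voom). With the replicate number as a block, limma called 0 genes in either genotype, with 1221 and 471 at an unadjusted p under 0.05. In WT MDCs, limma called 16 genes with all 18 libraries in 1 fit and 1 gene without WT day 6 replicate 2, and 0 members in either.

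**Figure D2:**
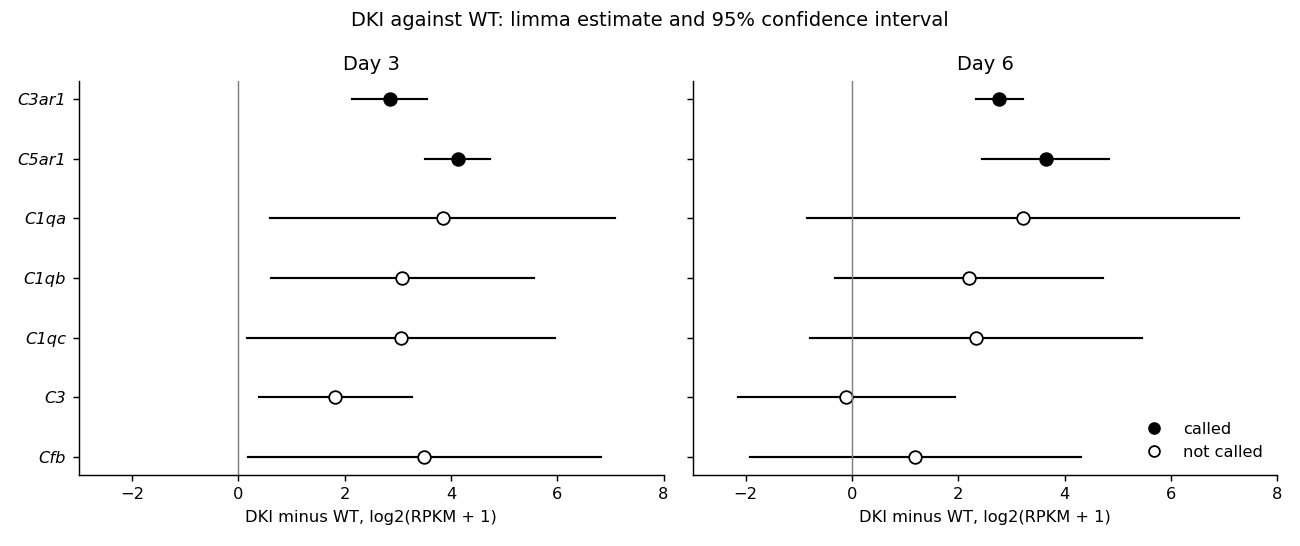
Difference DKI minus WT in log2(RPKM + 1) for the 7 complement genes on days 3 and 6, from limma without a replicate block, with 95% confidence intervals and filled points for called genes. The 2 receptors are called on both days, whereas the intervals of the C1q genes and *Cfb* are wide, and *C3* moves from 1.82 on day 3 to -0.11 on day 6.

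Neutrophil markers were read beside *C5ar1*, since neutrophils carry this receptor. The 10 markers summed to 113 to 778 RPKM in WT and 802 to 1432 RPKM in DKI MDCs on day 3, with 9 of 10 higher in DKI (median log2 difference 1.77). Of them 1, *Retnlg*, was called, where 7.42% of all genes were called. The largest part of each DKI sum was *Mmp8*, at 372, 901 and 1113 RPKM against 83.7, 231 and 283 RPKM in WT MDCs. *Ly6g*, the defining surface marker, was at 7.03, 1.38 and 2.93 RPKM in DKI and 0.210, 0.525 and 0 RPKM in WT MDCs. The granule gene *Ngp* was at 287, 314 and 19.6 RPKM in DKI and 20.8, 335 and 3.19 RPKM in WT MDCs. By replicate, the list summed to 113, 778 and 300 RPKM in WT MDCs of day 3, where *C5ar1* was at 11.2, 6.77 and 11.0 RPKM. In DKI MDCs of day 3 it summed to 802, 1432 and 1154 RPKM, where *C5ar1* was at 235, 151 and 168 RPKM. Untreated WT monocytes held 1184 to 1538 RPKM of the list and 13.1 to 60.5 RPKM of *C5ar1*. Untreated DKI monocytes held 1131 to 1493 RPKM of the list and 19.5 to 61.4 RPKM of *C5ar1*. On day 6 the list summed to 118 to 508 RPKM in WT and 488 to 909 RPKM in DKI MDCs, with 9 of 10 higher in DKI (median log2 difference 0.88) and 0 called by limma. The part of neutrophils in the *C5ar1* level was not tested.

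C1q was higher in DKI than in the same-numbered WT MDCs in every pair, while the libraries of 1 genotype differed among themselves by up to 60.2 times (*C1qa* in WT MDCs of day 6). On day 3 the DKI library held 9.45, 32.4 and 11.7 times the *C1qa* of its WT partner, 5.88, 23.3 and 5.39 times the *C1qb* and 6.05, 19.0 and 5.43 times the *C1qc*. WT replicate 1, at 187 RPKM of *C1qa*, was above DKI replicate 2 at 176 RPKM, so that the genotypes overlapped for *C1qa* and *C1qc* but not for *C1qb*. Of the genes tested on day 3, 36.3% did not overlap (13.4% higher in DKI). In the limma fit of the 6 libraries without a block none of the 3 was called, whereas *C1qb* was called with all 18 libraries in 1 fit (adjusted p = 0.0448). In the former the log2 differences were 3.84 for *C1qa* (SE 1.35, adjusted p = 0.138), 3.09 for *C1qb* (SE 1.03, adjusted p = 0.124) and 3.05 for *C1qc* (SE 1.21, adjusted p = 0.171). On leaving out 1 library they ranged from 2.60 to 5.04, 1.96 to 3.86 and 1.85 to 4.03 in the same order, and none was called. WT and DKI libraries of the same replicate number shifted in the same direction, and with that number as a block all 3 were called (adjusted p = 0.0208, 0.0373 and 0.0335). The block brought the members called to 5 of 7, where 5.66% of genes were called with it. Limma-voom with the block also called 5 members, where 8.51% of genes were called.

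On day 6, *C1qa* was at 832, 13.8 and 17.9 RPKM in WT and 2385, 235 and 333 RPKM in DKI MDCs. *C1qb* was at 280, 17.4 and 33.1 RPKM in WT and 589, 164 and 175 RPKM in DKI MDCs, and *C1qc* at 887, 34.6 and 61.2 RPKM in WT and 1912, 294 and 442 RPKM in DKI MDCs. Replicate 1 of either genotype was far above the others, and WT replicate 1 exceeded DKI replicates 2 and 3 for each gene. The log2 differences were 3.22 (SE 1.69), 2.20 (SE 1.05) and 2.33 (SE 1.30), and the adjusted p from limma was 0.260, 0.224 and 0.287 without and 0.0512, 0.0551 and 0.0525 with the replicate block, where 7.31% of genes were called. On leaving out 1 library, without the block, the differences ranged from 2.19 to 5.10, 1.40 to 3.36 and 1.42 to 3.74 in the same order, and none was called. With limma-voom and the block, added after the data were seen, the 3 genes were called (adjusted p = 0.0359, 0.0440 and 0.0389), where 10.7% of genes were called. In the later-year libraries, *C1qa* was called on day 6 (4.07, adjusted p = 0.0411), and *C1qb* and *C1qc* were not (adjusted p = 0.0866 and 0.0917).

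The 3 C1q transcripts are needed together, and their ratio was read as a further measure. The ratio of *C1qa* to *C1qb* in RPKM was 2.08 to 4.05 in the 4 earlier-year libraries and 0.541 to 1.90 in the 8 later-year MDC libraries. The ratio of *C1qc* to *C1qb* was 3.01 to 3.25 in the former and 1.80 to 2.52 in the latter. Within each same-numbered pair, the DKI library had the higher ratio of *C1qa* to *C1qb*, as in replicate 2 of day 3 (1.37 against 0.986) and replicate 3 of day 6 (1.90 against 0.541). The ratio of *C1qc* to *C1qb* was lower in DKI than in WT in replicate 2 of both days (1.80 against 2.22 on day 3, 1.80 against 1.99 on day 6) and higher in the other 4 pairs. No ratio was tested. The summed C1q level ranged from 23.1 RPKM in WT day 3 replicate 2 to 4886 RPKM in DKI day 6 replicate 1. The 8 markers of marrow tissue macrophages summed to 10.7 to 21.3 RPKM on day 0, 168 to 309 RPKM in WT and 71.3 to 435 RPKM in DKI MDCs on day 3, and 132 to 201 RPKM in WT and 67.3 to 410 RPKM in DKI MDCs on day 6. The highest DKI sum of each day was that of replicate 1, where *Siglec1* made up most of it. The other DKI libraries, at 71.3 and 125 RPKM on day 3 and 67.3 and 105 RPKM on day 6, lay below all WT sums of the day. On day 3, 6 of them were tested, and *Slc40a1* was called higher and *Axl*, which made up most of the WT sums, lower in DKI MDCs. Of all genes, 7.42% were called on that day. *Timd4* was between 0 and 0.0266 RPKM in every MDC library, *Spic* was at 3.05 and 4.65 RPKM in DKI replicate 1 of days 3 and 6 and at most 0.349 RPKM in the other MDC libraries, and *Cd163* was at 35.6 and 19.6 RPKM in those 2 libraries and at most 1.64 RPKM in the others. Their part in the C1q level was not tested. Without the earlier-year libraries, the C1q genes were not called on day 3, with log2 differences of 4.15 for *C1qa* (adjusted p = 0.0982 by limma), 3.36 for *C1qb* (0.163) and 3.28 for *C1qc* (0.165).

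**Figure D3:**
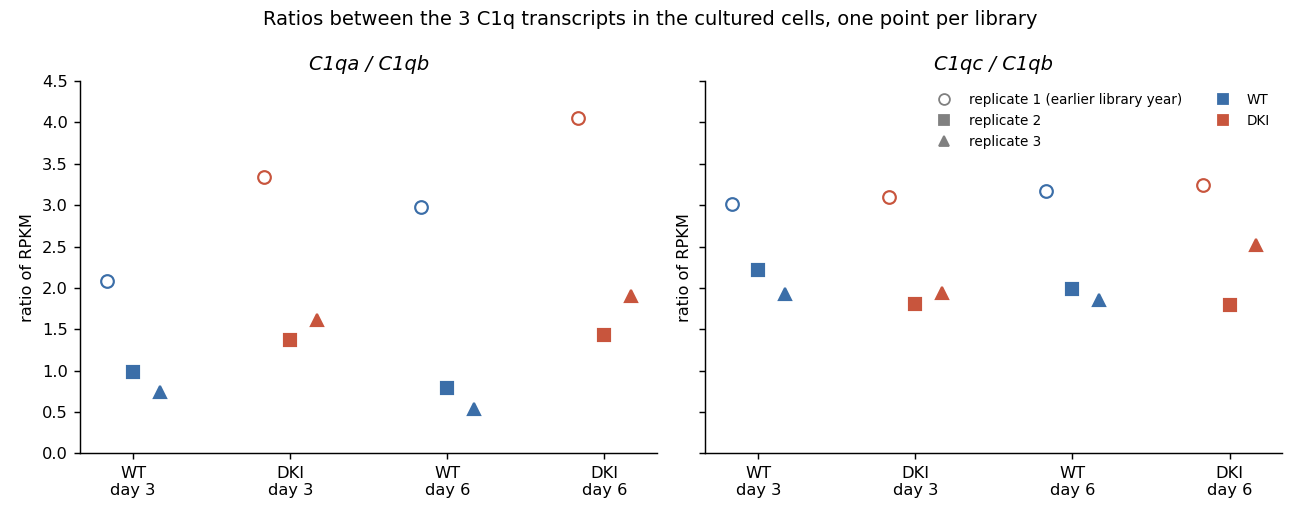
Ratio of *C1qa* to *C1qb* and of *C1qc* to *C1qb* in RPKM in each of the 12 MDC libraries, by genotype and day, with open symbols for the earlier-year libraries. The open symbols are the highest of their group in both panels, from 2.08 to 4.05 for *C1qa* and from 3.01 to 3.25 for *C1qc*.

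*C3*, the central component, differed between the genotypes on day 3 in the pairs but was not called. The DKI libraries held 720, 127 and 368 RPKM and the WT libraries 87.8, 77.1 and 110 RPKM, with no overlap and a log2 difference of 1.82 (SE 0.60, adjusted p = 0.122 by limma, 0.103 with the block). Of the genes tested, 36.3% did not overlap (13.4% higher in DKI). Without DKI replicate 2 the difference was 2.49 and was called (adjusted p = 0.0307). Leaving out each of the 6 libraries in turn gave 1.25 to 2.49, and this was the only call. In the later-year libraries the difference was 1.22 and was not called (adjusted p = 0.272 by limma). On day 6, DKI replicate 1 was at 519 RPKM, whereas replicates 2 and 3, at 49.6 and 68.3 RPKM, were below the 166, 129 and 104 RPKM of WT MDCs. The difference of day 6 was -0.11 (SE 0.85, adjusted p = 0.944) with a 95% interval from -2.15 to 1.94. It was above 0, at 0.07, 0.53 and 0.30, without WT replicate 1, DKI replicate 2 and DKI replicate 3, and at 0.04 when each library was centred on its median.

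*Cfb*, which supplies the protease of the alternative pathway convertase, was far higher in DKI replicate 1 than in the other 5 libraries of the same day, on day 3 and on day 6. On day 3 it was at 914, 22.9 and 24.5 RPKM in DKI and 6.77, 8.04 and 4.47 RPKM in WT MDCs, which is 135, 2.84 and 5.49 times higher by pair. The log2 difference was 3.50 (SE 1.38, adjusted p = 0.171 by limma, 0.148 with the block). Without DKI replicate 1 it was 1.76 and was called (adjusted p = 0.0182), as it was at 1.81 in the later-year libraries (adjusted p = 0.0487). On day 6, DKI replicate 1 was at 383 RPKM, and replicates 2 and 3 were at 11.1 and 12.9 RPKM, within or below the WT range of 12.2 to 21.6 RPKM. The difference was 1.19 (SE 1.30, adjusted p = 0.577) with all libraries and -0.44 without DKI replicate 1. From day 3 to day 6 *Cfb* was higher on day 6 in each WT replicate and lower in each DKI replicate. The log2 difference was 1.28 in WT (SE 0.26, or 0.077 with the replicate block, adjusted p = 0.596 and 0.203 by limma) and -1.04 in DKI (SE 1.90, or 0.15 with the block, adjusted p = 0.999 and 0.519), and the interaction (-2.31, SE 2.10, or 1.63 with the block) was not called by either. In replicate 1 of DKI on both days other complement genes were higher as well. *C2* was at 6.28 and 4.61 RPKM, against at most 0.808 RPKM in the other MDC libraries, and *C4b* at 7.22 and 6.03 RPKM, against at most 1.16 RPKM. The interferon-induced macrophage receptor gene *Siglec1* was at 303 and 228 RPKM in them and at most 18.4 RPKM in the other MDC libraries. The plasmacytoid dendritic cell list summed to 1247 and 968 RPKM in them, against 84.1 to 250.1 RPKM in the other MDC libraries. Nearly all of it was *Bst2* (1231 and 954 RPKM), which interferon also induces, and the defining marker *Siglech* was at 0.0106 and 0.0139 RPKM. The endothelial and stromal list summed to 41.0 and 46.8 RPKM, against at most 9.69 RPKM in the other MDC libraries. Their part in the complement levels was not tested.

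Ordered by their group means, the genes had 3 patterns. *C3ar1* rose from untreated monocytes over WT MDCs to DKI MDCs, and neighbouring groups overlapped within each of these 3 levels but not between them. *C5ar1* was lowest in WT MDCs, intermediate in untreated monocytes and highest in DKI MDCs. Neighbouring groups of different levels did not overlap, although WT replicate 3 of day 0, at 13.1 RPKM, lay below WT replicate 1 of day 6, at 14.3 RPKM. For the C1q genes, only the step from untreated monocytes to WT MDCs on day 3 had no overlap, and for *C3* every pair of neighbours in the order overlapped. For *Cfb*, WT MDCs of days 3 and 6 did not overlap, and all other neighbours did. Of the steps without overlap, the share over all genes was computed only for WT day 0 to WT day 3, at 61.0%. The order is therefore a description only.

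The profile of each gene over the 18 libraries was compared with 10417 other genes by the mean absolute difference in log2(RPKM + 1) after each gene was centred on its mean. The nearest genes to each C1q gene were the other two. *C1qa* and *C1qc* differed by 0.44, *C1qb* and *C1qc* by 0.45 and *C1qa* and *C1qb* by 0.59 per library, and the next genes were *Mrc1* for *C1qa* (1.44), *Plxdc2* for *C1qb* (0.92) and *Anpep* for *C1qc* (1.24). *C3ar1* was nearest to *Fblim1* (0.58), *Mertk* (0.62) and *Gbgt1* (0.70), of which *Mertk* encodes a receptor for dying cells. *C5ar1* was nearest to *Sash1* (0.44), *Tnfsf14* (0.58) and *Cbr2* (0.61). *C3* was nearest to *Limd2* (0.37), *Slpi* (0.46) and *Serinc3* (0.47). *Cfb* was nearest to *Il18bp* (0.41), *Iigp1* (0.64) and *Ifi44* (0.64), of which *Iigp1* and *Ifi44* are induced by interferons. These distances describe the same libraries, share their replicate effects and carry no test.

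Of 50 further complement genes, 49 were in the table and 19 reached a mean of 2 RPKM in at least one group. All 7 genes of the terminal pathway and *Cfd*, factor D of the alternative pathway, stayed below that level. On day 3, 17 genes were tested, and 3 were called higher and 0 lower in DKI MDCs, against 7.42% of all genes (3.21% higher). On day 6, 16 were tested, and the same 3 genes were called higher and 0 lower, against 7.54% (2.72% higher). They were *Cd93*, once described as a C1q receptor, *C5ar2*, the second receptor of C5a, and *Fcna*, a lectin that starts the lectin pathway. *C5ar2* and *Fcna* passed the filter through the DKI groups alone and so could be called higher only. *Cd93* was at 12.2, 7.53 and 21.0 RPKM in WT MDCs and 140, 133 and 150 RPKM in those of DKI mice on day 3 (log2 difference 3.39, SE 0.34, adjusted p = 0.00690 by limma). On day 6 it was at 7.11, 28.7 and 7.27 RPKM in WT and 160, 104 and 148 RPKM in DKI MDCs (3.43, SE 0.52, adjusted p = 0.0231). Untreated monocytes held 83.3 to 265 RPKM in WT and 82.9 to 256 RPKM in DKI, so that WT MDCs lay below and DKI MDCs within the day 0 range. The interaction of genotype and day was 3.42 (SE 0.71, adjusted p = 0.0292).

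*C5ar2* was far less abundant than *C5ar1* and differed in the same direction. It was at 0.438, 0.828 and 0.559 RPKM in WT MDCs and 7.68, 5.06 and 4.72 RPKM in those of DKI mice on day 3 (log2 difference 2.07, SE 0.23, adjusted p = 0.00926 by limma). On day 6 it was at 1.36, 1.33 and 0.492 RPKM in WT and 10.1, 5.06 and 9.09 RPKM in DKI MDCs (2.12, SE 0.31, adjusted p = 0.0205). *Fcna* was at 1.57, 0.484 and 0.519 RPKM in WT and 5.04, 5.44 and 4.29 RPKM in DKI MDCs on day 3 (1.72, SE 0.27, adjusted p = 0.0194). On day 6 it was at 2.15, 0.831 and 0.777 RPKM in WT and 12.5, 7.73 and 7.04 RPKM in DKI MDCs (2.18, SE 0.31, adjusted p = 0.0197). The interaction between days 0 and 3 was 1.91 for *C5ar2* (SE 0.45, adjusted p = 0.0499) and 1.76 for *Fcna* (SE 0.31, adjusted p = 0.0144). Since *Fcna* reached a mean of 2 RPKM only in DKI MDCs, a difference in the other direction could not have been seen for it. All of *Cd93*, *C5ar2* and *Fcna* were also called with the replicate block on both days. On leaving out 1 of the 6 libraries of day 3, *Cd93* and *C5ar2* were called each time, whereas *Fcna* lost its call without WT replicate 2 or 3 or DKI replicate 2 (adjusted p = 0.0557 to 0.0660). On day 6, *Cd93* and *C5ar2* lost theirs without replicate 1 or 3 of either genotype (0.0515 to 0.0831) and *Fcna* without replicate 3 of either (0.0730 and 0.0609). In the later-year libraries of day 6 none of the 3 was called (0.164 for *Cd93*, 0.146 for *C5ar2* and 0.0589 for *Fcna*). On day 6 without a filter on low values, all 3 lost their call by limma (adjusted p = 0.0530 for *Cd93*, 0.0515 for *C5ar2* and *Fcna*).

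**Figure D4:**
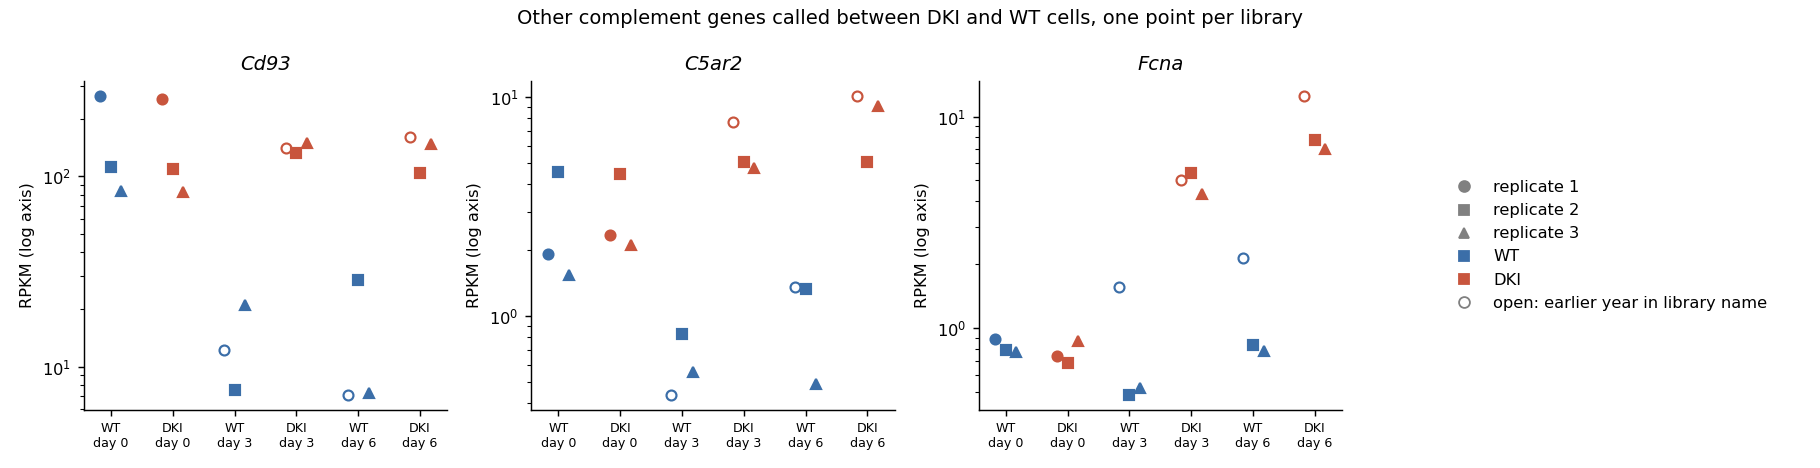
RPKM on a log axis of *Cd93*, *C5ar2* and *Fcna* in each of the 18 libraries, by genotype and day, with 1 symbol per replicate number and open symbols for the earlier-year libraries. The DKI MDCs lie above all WT MDCs for the 3 genes on days 3 and 6, and for *Cd93* the WT MDCs lie below the untreated monocytes.

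The other complement genes tested had differences that did not pass. Of the complement receptor subunits, *Itgax* (CR4) was at -2.20 on day 3 (adjusted p = 0.163 by limma) and -1.18 on day 6 (0.103), *Itgam* (CR3) at 0.63 (0.219) and 0.82 (0.127), and *Itgb2*, which pairs with both, at -0.22 (0.787) and 0.34 (0.587). *C1ra*, the protease bound to C1q, differed by 1.79 on day 3 (adjusted p = 0.119) and 1.57 on day 6 (0.0870). Its DKI libraries held 13.6, 2.19 and 7.67 RPKM on day 3 and its WT libraries 1.05, 0.520 and 2.15 RPKM. *Clu*, which encodes the fluid-phase inhibitor clusterin and was singled out after its values were seen, was at 20.2, 5.09 and 15.5 RPKM in WT and 2.14, 0.354 and 2.86 RPKM in DKI MDCs on day 6. Its log2 difference of -2.34 was called with the replicate block (adjusted p = 0.0162) and not without it (0.0591).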

How the data were processed

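Single-end RNA-seq reads of 18 libraries were aligned by the authors to mm10 with Subread and counted on RefSeq genes with featureCounts, and the authors deposited RPKM values, 1 column per library. Versions, strandedness and the handling of multiply matching reads are not given in the sources used here, so reads of genes that overlap another gene may be shared. The listed genes and the lists of pathway and marker genes were chosen with earlier results of these data known. Groups and replicate numbers were taken from the sample labels.

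Whole reads and depth were recovered from the spacing of low RPKM values for 15813 of 15814 genes with reads in 3 or more libraries (99.99% of values within 0.02 of a whole read). The depth of 29.5 M to 43.2 M reads puts 3 reads on a 1 kb gene at 0.102 RPKM or less, which covers counting error only. RPKM are not counts, so limma 3.58.1 (R 4.3.3, lmFit, and eBayes with an intensity trend) was used on log2(RPKM + 1), for genes with a mean RPKM above 2 in a compared group. The thresholds followed the study, with Benjamini-Hochberg adjusted p below 0.05 and more than a 1.5-fold change. Fold changes on this scale understate those of low genes. Steps were tested on simulated data. Genes were named by rule as the listed complement genes, other complement genes called between genotypes, and the 3 nearest profiles of each listed gene. Cell type markers and *C1ra*, *Itgax*, *Itgam*, *Itgb2*, *Cfd*, *C2*, *C4b* and *Clu* were named outside that rule, after their values were seen.

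The replicate numbers in the labels pair WT and DKI libraries within a day, since deviations from the group means correlated at 0.69 to 0.87 on day 0, 0.16 to 0.37 on day 3 and 0.34 to 0.41 on day 6 in every pair. Days 3 and 6 paired as well (0.12 to 0.74), whereas days 0 and 3 did not (-0.21 to 0.18). Replicates are independent experiments according to the series description. Alternatives were the replicate block, a pseudocount of 0.1, no filter, median centring, quantile normalization, all 18 libraries in a fit, no trend, each library left out, and the later-year libraries. After the data were seen, limma-voom on the recovered reads, without and with the block, and the block within each day were added. Tables and figures were made in Python 3.11.15 with pandas 2.3.3, numpy 2.4.6 and matplotlib 3.10.9.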

Additional observations from a re-analysis of the deposited data

Results flagged for a closer look

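The change of 4 complement genes from day 0 to day 3 differed between the genotypes in the limma interaction over 12 libraries. They were 1 of the 7 genes of the set and 3 of the 18 other complement genes tested, where 2.91% of 10212 genes were called. The difference in log2 fold change, DKI minus WT, was 4.09 for *C5ar1* (adjusted p = 0.0163), 3.42 for *Cd93* (adjusted p = 0.0292), 1.91 for *C5ar2* (adjusted p = 0.0499) and 1.76 for *Fcna* (adjusted p = 0.0144). For *C5ar1*, all DKI libraries of day 3 were above all of day 0 and all WT libraries of day 3 were below all of day 0. Of the 23 alternatives, *Fcna* was called in 22 (adjusted p from 0.00275 to 0.0679), *C5ar1* in 21 (0.00183 to 0.0592), *Cd93* in 14 (0.00299 to 0.0962) and *C5ar2* in 8 (0.0103 to 0.166). *Fcna* reached the mean of 2 RPKM needed for a test only in DKI MDCs of day 3, so that no other direction was possible for it. On leaving out each of the 12 libraries in turn, *Fcna* was called 12 times, *C5ar1* 11, *Cd93* 6 and *C5ar2* 1. In the later-year libraries alone, *Fcna* was called (2.00, adjusted p = 0.00275 by limma), and *C5ar1* (adjusted p = 0.0592), *Cd93* (0.0962) and *C5ar2* (0.166) were not. The part of cell composition in these differences was not tested.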

How the results depend on the processing

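The number of complement genes called was within 1.5 times its value under 14 of 16 alternatives for DKI against WT on day 3, 12 of 16 on day 6, 15 of 16 for WT from day 0 to day 3, all 16 for DKI from day 0 to day 3 and 18 of 23 for the interaction of days 0 and 3. It stayed at 0 for the genotypes on day 0 (15 alternatives), for both genotypes between days 3 and 6 (16 each) and for the interaction of days 3 and 6 (23). On day 3, 5 genes were called with the replicate block, where 5.66% of all genes were called, and 5 with limma-voom and the block (8.51%), and on day 6, 5 with limma-voom and the block (10.7%), instead of 2. In WT from day 0 to day 3, limma-voom called 4 instead of 7. The interaction of days 0 and 3 had 5 calls with the block within day instead of 1. Leaving out 1 library gave 1 to 2 calls on day 6 and 0 to 2 for the interaction. The replicate block over all libraries changed no other call of these genes, and the numbers do not pair days 0 and 3.

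Of the log2 differences of single genes over all alternatives, 1074 kept direction and call, 70 lost and 26 gained the call, and 49 changed sign, none of them of a called gene. On leaving out 1 library, DKI minus WT on day 0 ranged from -0.36 to 0.79 for *C3ar1* and from -0.58 to 0.48 for *C5ar1* (-0.012 with limma-voom and the block). On day 6 it ranged from -1.15 to 0.53 for *C3* (0.038 with median centring) and from -0.44 to 2.05 for *Cfb* (-0.42 in the later-year libraries). From day 0 to day 3 in DKI it ranged from -1.14 to 0.11 for *C3*. From day 3 to day 6 in WT it ranged from -1.10 to 1.97 for *C1qa*, -0.31 to 1.65 for *C1qb*, -0.58 to 1.81 for *C1qc* and -0.25 to 0.28 for *C5ar1* (-0.14 in the later-year libraries). In DKI it ranged from -0.88 to 1.04 for *C1qa*, -0.64 to 0.46 for *C1qb* (0.034 with median centring), -0.70 to 0.85 for *C1qc*, -0.12 to 0.31 for *C3ar1*, -0.90 to 0.025 for *C5ar1* and -2.67 to 0.70 for *Cfb*. The interaction of days 3 and 6 ranged from -1.82 to 1.25 for *C1qa*, -1.69 to 0.28 for *C1qb*, -1.70 to 0.69 for *C1qc*, -0.32 to 0.11 for *C3ar1* (0.014 with quantile normalization, 0.16 in the later-year libraries) and -0.92 to 0.0082 for *C5ar1*. The causes were not tested. Depth limits the C1q levels of day 0 alone, at 1 to 11 reads per library.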
